A study of Rattus norvegicus with 6 samples.

Results

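Axon guidance ligands and receptors were followed in rat primary cortical cells, which hold neurons beside glia and further cell types, after forced expression of Math2. Math2, now called Neurod6, is a neuronal transcription factor of the basic helix-loop-helix class. The genes were chosen by symbol: Eph receptors and ephrins (Epha, Ephb, Efna, Efnb), semaphorins (Sema), plexins (Plxn), neuropilins (Nrp1, Nrp2), slits and Robo receptors, netrins (Ntn), netrin G proteins (Ntng), Dcc and Unc5 genes. They gave 58 of the 14218 genes named on the array, with 97 of its 31099 probe sets. Unc50 shares the letters of Unc5 but no known guidance role and was left out (log2 difference 0.11). There were 3 arrays of Math2 samples, from cells that received 13.3 µg of a Math2 vector, and 3 arrays of control samples, from cells that received the same amount of a control vector. All dishes also took up 2.7 µg of a vector for a truncated nerve growth factor receptor (LNGFR), and 24 h later the cells carrying this surface tag were pulled out magnetically, so both groups carry the tag. The species and sequence of the transfected Math2 are not stated in the labels, which also do not say whether the 3 samples of a group came from separate cultures or animals. The p-values therefore cover only how far these samples spread, and that spread may be technical.

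Growing axons are steered by cues that act through receptors on the growth cone, the motile tip of the axon. Netrins attract axons through Dcc and can repel them through Unc5 receptors, semaphorins act mostly as repellents through plexins and neuropilins, slits repel through Robo receptors, and ephrins and Eph receptors signal between touching cells in both directions. In the developing cortex these systems guide callosal, corticothalamic and thalamocortical axons and shape neuron migration and synapse formation.

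Each array gave 1 MAS5 signal, a summary of background-corrected probe intensities, per probe set. Array medians lay between 106 and 119 in the Math2 arrays and between 102 and 120.1 in the control arrays. The Neurod6 probe set had signals of 312, 167 and 1546 on Math2 arrays 1, 2 and 3, against 386, 207 and 973 on control arrays 1, 2 and 3, and whether it lies within the transfected sequence is not known, so it does not check the labels. Hybridization spike-ins had a geometric mean of 3875 to 6773 on the Math2 arrays and of 1893 to 2566 on the control arrays. The groups thus did not overlap in this technical measure, and its part in the differences below was not tested. The ratio of the 3' to the 5' Gapdh probe set, which grows as labelled transcripts get shorter, ran from 6.0 to 8.48 on the Math2 arrays and from 3.74 to 13.8 on the control arrays. Pan-neuronal markers summed to signals of 18357 to 39593 in the Math2 arrays and 17773 to 31713 in the control arrays, with Syt1 and Nefl of 16 below the array median on all 6 arrays. Astrocyte markers summed to 26288 to 42138 in the Math2 arrays and 29466 to 38848 in the control arrays, and 11 of 12 microglia markers lay below the array median on all 6 arrays.

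Most of the measurable guidance genes stood lower in the Math2 samples than in the control samples. Signals were taken as log2(signal + 7.42), and a log2 difference is Math2 minus control there, so dim probe sets have their change understated. Probe sets with a mean of at least 6.07 on it were tested, which kept 58 of the 97, for 42 of the 58 genes. Among these 58 probe sets, 43 were lower and 15 higher in Math2 samples, with a median log2 difference of -0.271. The background was 54.3% lower and 45.7% higher among all 18625 tested probe sets, with a median of -0.031. Counted by gene, with the probe set of highest mean signal standing for its gene, 34 of 42 were lower and 8 higher, and the median was -0.312 against -0.028 over all 10417 tested genes. No single member passed the test: limma, with p-values adjusted by Benjamini-Hochberg across the 18625 probe sets, called 0 members higher and 0 lower at an adjusted p under 0.05, where the background was 0% in each direction. At an unadjusted p under 0.05 it gave 0 members higher, with a background of 1.75%, and 4 lower, with a background of 1.44%. With the sample number as a block it again called 0 members, against 0.0161% of all probe sets higher and 0% lower, and with quantile normalization as well 0 members, against 0.0215% higher and 0.00537% lower.

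The plot of differences by gene sets the systems beside each other. The netrin and semaphorin systems lay mostly below 0, the Eph system nearer to 0, and both tested Robo receptors above it, of which Robo1 passed the filter only through the Math2 samples.

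**Figure D1:**
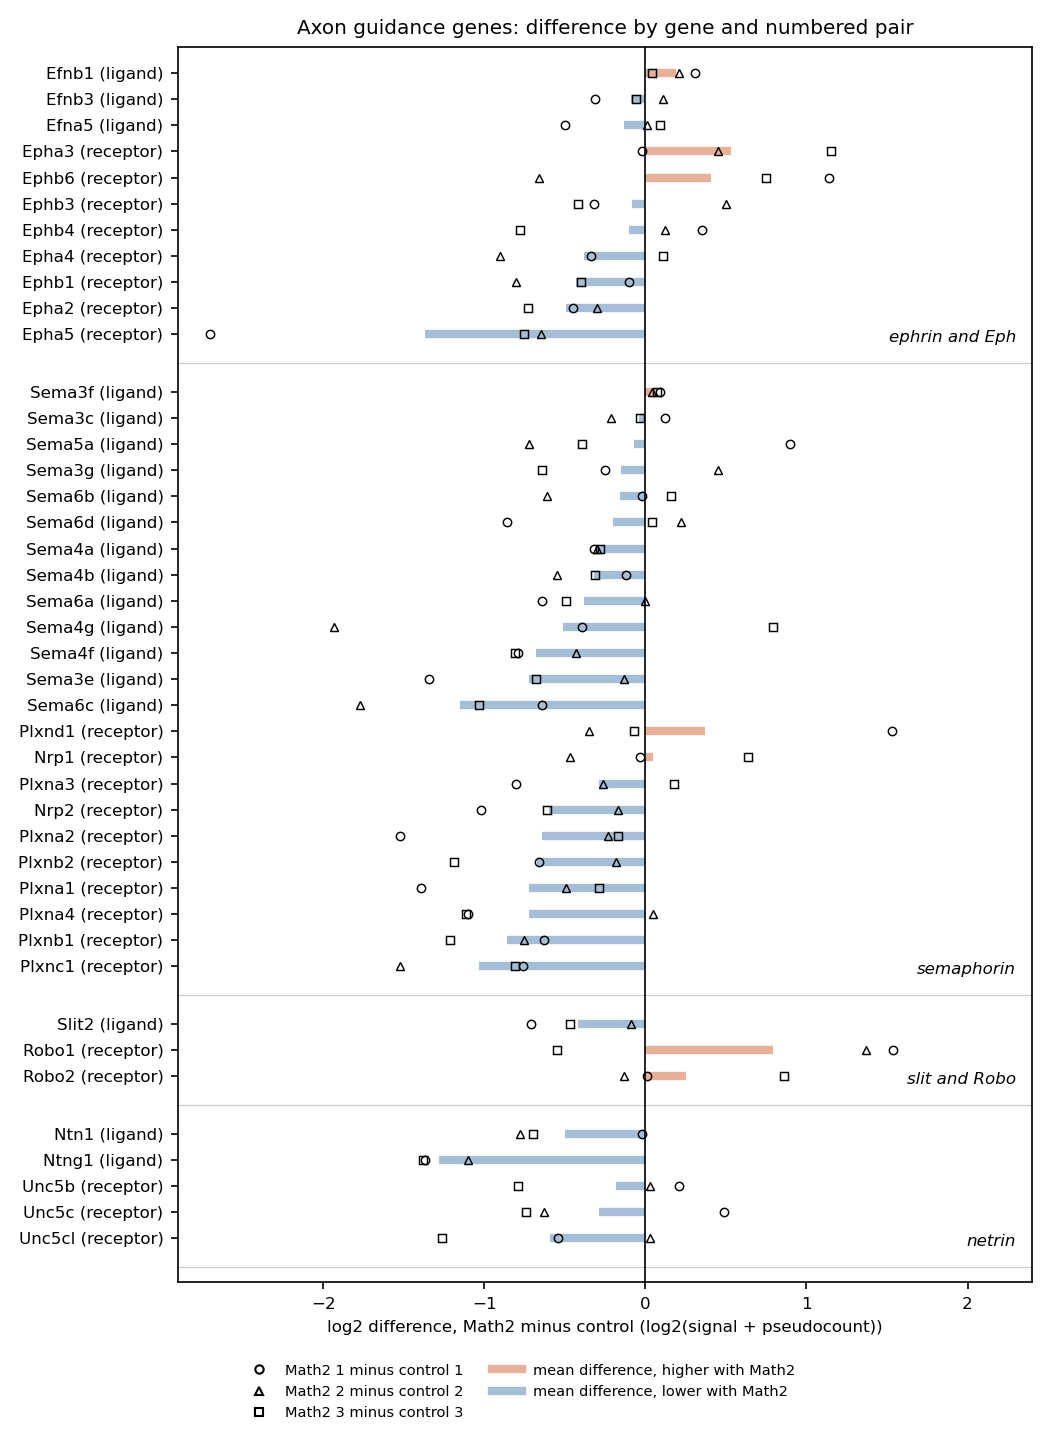
Log2 difference (Math2 minus control, x axis) of the 42 tested guidance genes, grouped by ligand and receptor system. Bars are mean differences over 3 arrays a group and symbols are the 3 pairs of like-numbered arrays; 34 bars lie below 0 and 8 above.

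The shift was present in each pair of like-numbered samples. The gene median was -0.332, -0.247 and -0.413 for Math2 samples 1, 2 and 3 minus control samples 1, 2 and 3, against -0.008, 0.006 and -0.068 over all tested genes. Lower signals in 3 of 3 pairs were found for 22 of 58 member probe sets, with a background of 15.2%, and higher signals in 3 of 3 pairs for 3, with a background of 13.1%. Control array 3 stood furthest from the others: its member probe sets lay a median of 0.303 above their own 6-array mean, while control arrays 1 and 2 both lay 0.067 above it. Math2 arrays 1, 2 and 3 lay at -0.174, -0.159 and -0.081. Without control array 3 the gene median was -0.266, with 31 of 42 genes lower.

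**Figure D2:**
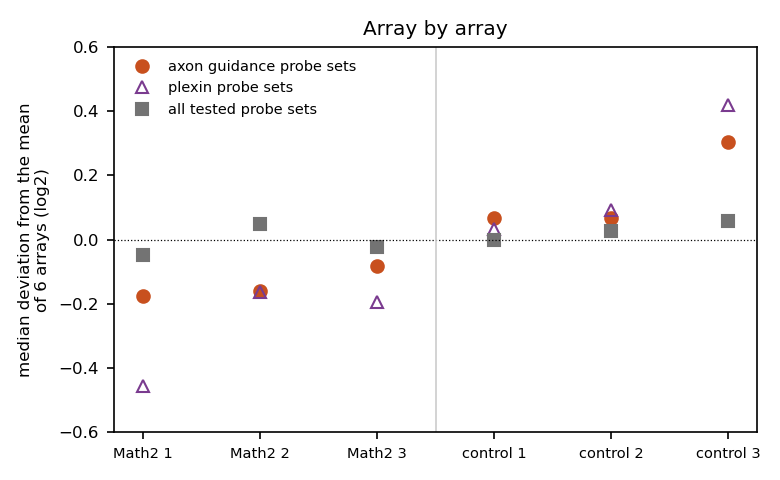
Median deviation of probe sets from their own mean over 6 arrays (log2, y axis) on each array, for the 58 guidance probe sets (circles), the 15 plexin probe sets among them (triangles) and all 18625 tested probe sets (squares). The guidance median is below 0 on the 3 Math2 arrays and above 0 on the 3 control arrays, with control array 3 the highest at 0.303.

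Among probe sets of similar signal the members again leaned lower. In the middle range of the members by mean log2 signal, 6.91 to 8.71, 24 of 28 members were lower with a median of -0.373. Of all 6237 probe sets in that range, 57.0% were lower with a median of -0.057. The 24 make up 85.7% of these members, against 74.1% lower among all 58 tested members. Tested members outside the range thus leaned lower less often. After quantile normalization, which forces the same distribution on every array, 43 of 58 members were still lower and the median was -0.25, against 52.1% and -0.016 over all tested probe sets. There too 7 of the 58 tested members did not overlap between the groups, all lower, with a background of 3.89% lower and 3.06% higher. The 39 member probe sets under the filter were split more evenly: all lay below the array median on all 6 arrays, 18 were lower and 21 higher. The sign of such dim signals is uncertain, since the table gives no detection calls. Of the 58 tested probe sets, 6 passed the filter through 1 group only and so had to differ: those of Robo1 and Ephb6 through the Math2 samples, and 1 each of Sema4g, Sema5a, Plxnb1 and Unc5c through the control samples. Among the other 52, 39 were lower, and 33 of the 39 genes they stand for.

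**Figure D3:**
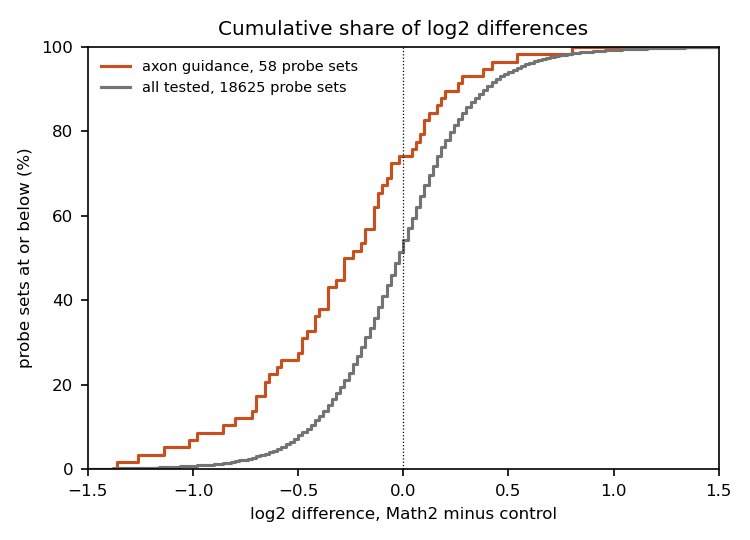
Cumulative share of probe sets (percent, y axis) at or below each log2 difference (x axis) for the 58 tested guidance probe sets and all 18625 tested probe sets. At 0 the guidance curve has reached 74.1% and the curve of all probe sets 54.3%.

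The Math2 and control signals did not overlap for 7 of the 58 tested member probe sets, all lower in Math2 samples. The background was 4.3% lower and 3.7% higher. Of the 39 dim member probe sets under the filter, 2 were higher and 2 lower without overlap. The 7 tested ones belonged to Ntng1, Sema6c, Plxnc1, Plxnb1, Plxna1, Nrp2 and Ntn1. Ntng1, Sema6c and Plxnc1 also differed at least 2-fold, against a background of 0.328% lower and 0.37% higher. Unadjusted limma p-values under 0.05 were found for 4 members, Ntng1, Sema6c, Plxnc1 and Plxnb1, all lower. With the sample number as a block there were 11, all lower, with a background of 3.92% lower and 3.78% higher. Less RNA per cell and fewer cells of a type cannot be told apart in these bulk samples.

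**Figure D4:**
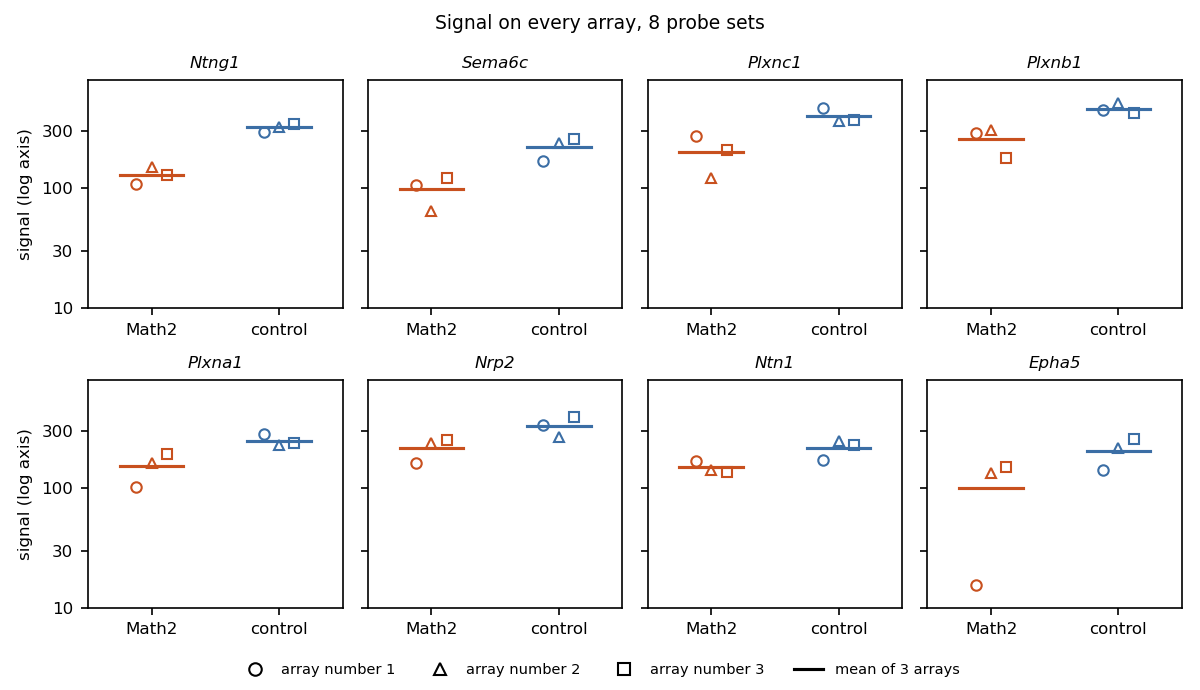
Signal (log axis) on each of the 3 Math2 arrays (left) and 3 control arrays (right) for 8 probe sets; horizontal lines are means and symbol shapes give the array number. Math2 and control signals do not overlap for the first 7, and for Epha5 Math2 array 1 stands apart at 15.5.

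Promoters follow for the 3 genes with a tested probe set at least 2-fold apart without overlap. They are shown because basic helix-loop-helix factors bind E-boxes, short sites with the letters CANNTG. RefSeq promoter windows of the GRCr8 assembly, from 250 bases before to 50 after the gene's start, were found for 44 of the 58 genes. Capitals mark every CANNTG, which reads the same on both strands.
Ntng1, chr2:200514982-200515281, minus strand: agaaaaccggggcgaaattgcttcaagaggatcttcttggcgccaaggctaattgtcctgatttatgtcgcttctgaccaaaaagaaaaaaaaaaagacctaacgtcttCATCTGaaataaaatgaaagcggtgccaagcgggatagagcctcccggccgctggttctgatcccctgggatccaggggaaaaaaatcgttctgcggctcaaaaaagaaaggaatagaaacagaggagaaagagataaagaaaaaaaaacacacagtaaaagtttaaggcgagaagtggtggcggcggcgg
Sema6c, chr2:185426236-185426535, plus strand: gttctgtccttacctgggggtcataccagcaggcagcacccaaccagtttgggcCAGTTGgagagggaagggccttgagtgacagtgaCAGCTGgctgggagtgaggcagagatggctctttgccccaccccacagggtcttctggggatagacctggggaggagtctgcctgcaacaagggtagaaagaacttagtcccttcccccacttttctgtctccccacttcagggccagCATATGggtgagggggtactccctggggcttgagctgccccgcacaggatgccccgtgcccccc
Plxnc1, chr7:31430556-31430855, minus strand: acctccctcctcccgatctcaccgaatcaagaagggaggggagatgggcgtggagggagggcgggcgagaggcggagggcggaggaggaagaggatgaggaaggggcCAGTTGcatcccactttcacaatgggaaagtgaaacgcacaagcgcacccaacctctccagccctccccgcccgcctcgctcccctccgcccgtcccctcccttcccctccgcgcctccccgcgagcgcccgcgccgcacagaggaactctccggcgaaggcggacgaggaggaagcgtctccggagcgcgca

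The Ntng1 window held 1 E-box, the Sema6c window 3 and the Plxnc1 window 1. Windows with at least 1 CANNTG made up 68.0% of the 25 found for member genes that were lower in Math2 samples, and 72.1% of all 33469 promoters of the same length. The more specific form CAGATG, searched on both strands and contained in CANNTG, was in 8.0% of the 25 and in 16.6% of all promoters, and the Ntng1 site is of this form. CAGCTG, also contained in CANNTG, was in 28.0% of the 25 and in 15.1% of all promoters, and the Sema6c window holds 1. Among the 8 windows of tested member genes that were higher in Math2 samples, 2 held CAGCTG. Differences between these shares were not tested. The motif counts are matches of letters in a short window, and binding was not measured.

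Ntng1 encodes netrin G1, a netrin relative anchored to the axon membrane that binds the synaptic protein NGL-1 and not Dcc. Its signals were 109, 149 and 128 in Math2 samples 1, 2 and 3, against 293, 326 and 345 in control samples 1, 2 and 3. Every Math2 array lay below every control array, and no array of either group stood apart. The mean was 129 ± 19.8 in Math2 samples and 321 ± 26.5 in control samples (SD, n = 3 each), a 2.43-fold lower level with a log2 difference of -1.28 (95% interval -1.94 to -0.62). It had the smallest p of the members but did not pass over all probe sets (limma adjusted p = 1.0 unblocked, 0.206 with the sample block). Pair differences were -1.37, -1.10 and -1.38, the closest agreement among the 3 tested probe sets at least 2-fold apart without overlap. Lrrc4c, the gene of NGL-1, had signals of 291, 255 and 422 in Math2 samples and 287, 217 and 312 in control samples, and these overlapped.

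The secreted netrin gene Ntn1, a cue for commissural and cortical axons, had signals of 169, 142 and 137 in Math2 samples and 171, 249 and 228 in control samples. The groups did not overlap, yet the pair of number 1 differed by only -0.02. The log2 difference was -0.50 (95% interval -1.19 to 0.19), which includes 0 (exact permutation p = 0.1, the smallest that 3 against 3 arrays can give). Both other Ntn1 probe sets and Dcc, the attractive netrin receptor, were too dim to be tested. Dcc had signals of 42.3, 55 and 24.5 in Math2 samples and 31.8, 12 and 11.7 in control samples, below the array median on every array.

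Unc5 receptors turn the netrin response to repulsion. Unc5b had a log2 difference of -0.18. The brighter Unc5c probe set measured 423, 186 and 288 in Math2 samples and 299, 292 and 487 in control samples (-0.29, 95% interval -1.10 to 0.52). The dimmer Unc5c probe set, below the array median on all 6 arrays, had 53.4, 43.1 and 57.8 in Math2 samples and 93.3, 53.5 and 77.8 in control samples, values that overlap. It passed the filter only through the control samples, so its direction was in part set by the filter. Unc5cl, named for its similarity to Unc5c and not known as a netrin receptor, measured 197, 191 and 122 in Math2 samples and 290.2, 187 and 301 in control samples, with a log2 difference of -0.59 (95% interval -1.34 to 0.16). All 5 tested genes of the netrin system, which here takes in Ntng1 and Unc5cl, were thus lower in mean, 2 of them in 3 of 3 pairs. Apart from Ntng1, the 95% intervals of these genes include 0.

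Of 17 semaphorin genes 13 were tested, and 12 were lower in Math2 samples with 1 higher, Sema3f at 0.07. Of the 12, Sema4g passed the filter only through the control samples. The lowest was Sema6c, a transmembrane semaphorin of class 6. Sema6c measured 106, 65 and 122 in Math2 samples 1, 2 and 3, against 169, 240.0 and 257 in control samples 1, 2 and 3. The highest Math2 signal lay below the lowest control signal. Means were 97.7 ± 29.4 in Math2 samples and 222 ± 46.5 in control samples (SD, n = 3 each), 2.21-fold lower with a log2 difference of -1.15 (95% interval -1.94 to -0.35; limma adjusted p = 1.0 unblocked, 0.384 with the sample block). Of the other Sema6c probe sets, both under the filter, 1 had a difference of -0.81, with overlapping groups, and was lower in 2 of 3 pairs. The other, at 0.69, went the opposite way: it was higher in 3 of 3 pairs and its groups did not overlap. Both lay below the array median on all 6 arrays.

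Other class 6 semaphorins showed smaller differences. Sema6a, which acts through plexin A2 and A4, had tested probe sets at -0.38 and -0.40, and each was lower in 3 of 3 pairs. The brighter Sema6a probe set measured 1893, 2645 and 1772 in Math2 samples and 2958, 2653 and 2489 in control samples. Math2 array 2 thus reached the control range, and its pair differed by only 0.0 after rounding. Sema6b and Sema6d stood at -0.16 and -0.20, each with intervals that include 0.

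Among the secreted class 3 semaphorins, Sema3e, a ligand of plexin D1, measured 769, 788 and 1065 in Math2 samples and 1962, 861 and 1708 in control samples. Control array 2 fell among the Math2 values, and the other control arrays lay above all of them. The log2 difference was -0.72 (95% interval -1.44 to 0.01; limma adjusted p = 0.497 with the block). Sema3c, which acts through neuropilins and was bright on every array, measured 5457, 4214 and 4792 in Math2 samples and 5006, 4871 and 4883 in control samples, a log2 difference of -0.04 with an interval of -0.45 to 0.38. Sema3f, a ligand of neuropilin 2, lay below the array median on all 6 arrays. Sema3a, the collapse-inducing ligand of neuropilin 1, was not tested: its signals were 2.93, 107 and 12.8 in Math2 samples and 23.4, 64.9 and 95 in control samples.

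The 4 tested class 4 semaphorin genes had log2 differences of -0.30 (Sema4a), -0.32 (Sema4b), -0.51 (Sema4g) and -0.68 (Sema4f). Sema4a, Sema4b and Sema4f were lower in 3 of 3 pairs, while Sema4g varied widely at 49.6, 19.1 and 128 in Math2 samples, against 67.5, 93.4 and 71.1 in control samples. Sema4g passed the filter only through the control samples, so its direction was in part set by the filter. The Sema5a probe sets disagreed on Math2 array 1. The probe set with the larger difference (-1.0) read 9.59, 119.9 and 132 in Math2 samples and 111, 136 and 134 in control samples, and the other (-0.07) read 115, 86.4 and 93.4 in Math2 samples and 58.3, 148 and 124 in control samples. The Sema5a probe set at -1.0 also passed the filter only through the control samples.

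Plexins, the semaphorin receptors whose inner part acts on small GTPases, were lower in 7 of 8 genes with a median log2 difference of -0.697. Of their 15 tested probe sets 11 were lower and 4 higher, with a median of -0.366, so the gene count leans on the brightest probe sets. Plxnc1, whose known ligand is Sema7a, had its brighter probe set at 275, 122 and 209 in Math2 samples and 470.1, 364 and 373 in control samples. The groups did not overlap. Its means were 202 ± 76.8 and 402 ± 59.0 in Math2 and control samples (SD, n = 3 each), 2.04-fold lower with a log2 difference of -1.03 (95% interval -1.80 to -0.26; limma adjusted p = 1.0 unblocked, 0.338 with the sample block). The dimmer Plxnc1 probe set measured 114, 96.1 and 174 in Math2 samples and 334, 164 and 204 in control samples, a log2 difference of -0.81. There Math2 array 3 exceeded control array 2, and the probe sets had the same sign in all 3 pairs.

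Plxnb1, the receptor of Sema4d, had its brightest probe set at 289, 303 and 178 in Math2 samples and 450.4, 514 and 421 in control samples. The groups did not overlap, and the log2 difference was -0.86 (95% interval -1.54 to -0.19; limma adjusted p = 1.0 unblocked, 0.41 with the sample block). The other Plxnb1 probe sets did not show a like difference. They measured 44.6, 148 and 81.5 against 96.2, 101 and 129.9, and 62.4, 201 and 10.7 against 19.2, 155 and 94.9, in Math2 and control samples, with log2 differences of -0.37 and -0.25. Both were below the array median on 4 of 6 arrays, and their signals overlapped. The probe set at -0.25 passed the filter only through the control samples.

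Plxna1 and Nrp2 are outside the rule for naming genes and were singled out after their values were seen, because their groups did not overlap; array values of Sema3a, Sema3c, Sema4g, Sema5a, Sema6a, Nrp1, Dcc and Lrrc4c were likewise added then, for their roles or their spread. Plxna1, a partner of neuropilins in class 3 semaphorin signalling, measured 103, 162 and 192 in Math2 samples and 282, 229.9 and 238 in control samples (log2 difference -0.72, 95% interval -1.46 to 0.01). Nrp2, the neuropilin that binds Sema3f, measured 163, 238 and 253 in Math2 samples and 339.8, 269.7 and 391 in control samples (log2 difference -0.60, 95% interval -1.29 to 0.08). Nrp1, the neuropilin that binds Sema3a, had its brighter probe set at 869, 717 and 1528 in Math2 samples and 889, 995 and 979 in control samples, and the log2 difference was 0.05 (95% interval -0.63 to 0.72). Whether Nrp1 and Nrp2 responded differently was not tested. The remaining plexins stood at -0.72 (Plxna4), -0.67 (Plxnb2), -0.64 (Plxna2), -0.29 (Plxna3) and 0.37 (Plxnd1). All intervals given so far are from the unblocked fit, in which those of these 5 include 0. With the sample number as a block the 95% interval was -1.18 to -0.17 for Plxnb2, -1.24 to -0.05 for the brightest Plxna2 probe set, -1.39 to -0.05 for Plxna1, -1.52 to -0.11 for the dimmer Plxnc1 probe set and -1.25 to -0.18 for Sema3e, none of which includes 0, while no adjusted p passed.

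Probe sets of the same gene did not always point the same way. Of 13 genes with several tested probe sets, 6 were lower in all of them, 1 (Robo2) was higher in all, and 6 were mixed. Plxna2 and Plxna4 were among the mixed genes: the brightest Plxna2 probe set had -0.64 and its others 0.09 and 0.10, and the Plxna4 probe sets had -0.72 and 0.27. The files do not give where on a transcript a probe set lies.

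**Figure D5:**
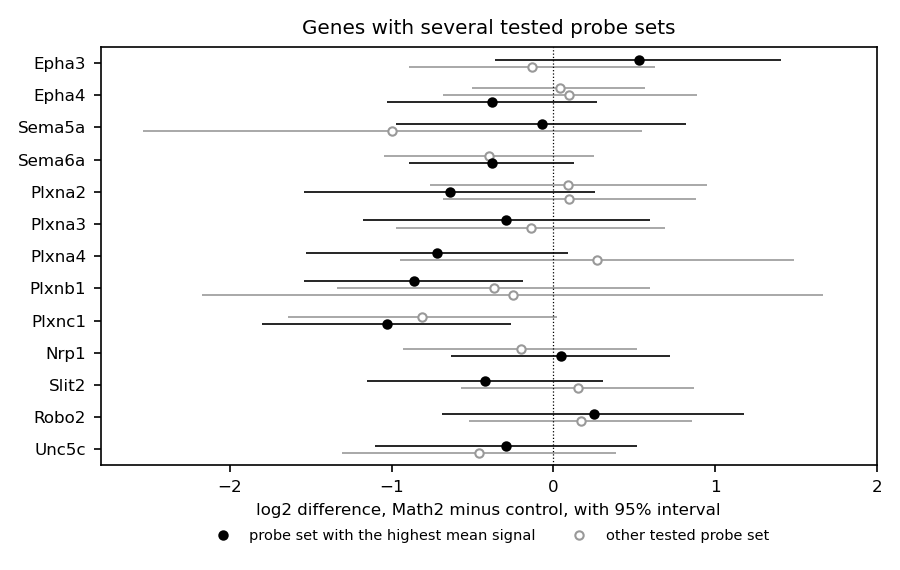
Log2 difference (Math2 minus control, x axis) with its 95% interval for every tested probe set of the 13 genes that have several. Filled points are the probe set with the highest mean signal; for Plxna2, Plxna4, Epha3, Epha4, Nrp1 and Slit2 the signs are mixed.

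Eph receptors and ephrins lay closer to 0 as a group. Of 17 genes 11 were tested, 8 lower and 3 higher, with a median log2 difference of -0.101. The ephrins Efna5, Efnb1 and Efnb3, membrane-bound ligands, stood at -0.13, 0.19 and -0.09. Epha5, an ephrin-A receptor of cortical axons, had signals of 15.5, 135 and 149.8 in Math2 samples and 141, 216 and 257 in control samples. Math2 array 1 carried much of its log2 difference of -1.37 (95% interval -2.82 to 0.09 unblocked and -2.26 to -0.47 with the block; limma adjusted p = 0.421 with the block). Math2 array 3 exceeded control array 1, so the groups overlapped. Without Math2 array 1 the difference was -0.46.

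Epha4, a receptor of both ephrin classes in cortical neurons, had its brightest probe set at 2243, 1297 and 2962 in Math2 samples and 2849, 2431 and 2747 in control samples, a log2 difference of -0.38. Math2 array 2 carried most of it: without that array the difference was -0.05. Another Epha4 probe set measured 1268, 1400.1 and 1577 in Math2 samples and 1098, 1551 and 1519 in control samples (0.04). The dimmest measured 129, 134 and 89.4 in Math2 samples and 140.5, 102 and 86.1 in control samples (0.10), so neither separated the groups. Ephb1, an ephrin-B receptor of axons that avoid crossing the optic chiasm, measured 232, 206 and 289.8 in Math2 samples and 249, 363 and 386 in control samples (log2 difference -0.43, 95% interval -1.11 to 0.25). Epha3 was the highest Eph receptor by difference. Its brighter probe set measured 674, 478 and 1331 in Math2 samples and 685, 347 and 597 in control samples, a log2 difference of 0.53 that became 0.12 when Math2 array 3 was left out and 0.24 when control array 2 was, and its dimmer probe set had 148, 246 and 171 in Math2 samples and 151, 213 and 257 in control samples (-0.13).

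Robo receptors bind slits on the growth cone. Robo1 measured 124, 121 and 63.1 in Math2 samples and 37.8, 42.1 and 95.5 in control samples, a log2 difference of 0.79 (95% interval -0.21 to 1.79; exact permutation p = 0.2). Pairs 1 and 2 were higher in Math2 samples and pair 3 lower, and 4 of the 6 signals lay below the array median. Its mean log2 signal was 6.73 in Math2 samples and 5.94 in control samples, which is under the filter, so its direction was in part set by the filter. Robo2 had 1119, 548 and 1867 in Math2 samples and 1115, 600.2 and 1022 in control samples for its brighter probe set (log2 difference 0.25). The dimmer Robo2 probe set measured 172, 142 and 173 in Math2 samples and 164, 142 and 126 in control samples (0.17), and both overlapped. The sign of the brighter Robo2 probe set turned to -0.17 without Math2 array 3. Slit2, a Robo ligand, measured 173, 195 and 265 in Math2 samples and 288, 208 and 369 in control samples for its brighter probe set (log2 difference -0.42, 95% interval -1.15 to 0.31), while its other tested probe set measured 275, 230 and 158 in Math2 samples and 162, 207 and 217 in control samples (0.15). Slit1, Slit3 and Robo3 were too dim to be tested.

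Further genes of the same pathways, listed apart from the members, were split evenly by direction. Of 86 co-receptors, cues and intracellular effectors, 73 were tested: 36 were higher and 37 lower in Math2 samples, with a median log2 difference of -0.005, and 0 passed in either direction. At an unadjusted limma p under 0.05 there were 1 higher and 3 lower, with a background over all tested probe sets of 1.75% higher and 1.44% lower. The groups did not overlap for 1 higher and 3 lower, with a background of 3.7% higher and 4.3% lower. Chn2, a Rac-inactivating protein of the chimaerin family, measured 313, 206 and 636 in Math2 samples and 121, 63.7 and 333 in control samples (log2 difference 1.27). Cntn1, an axonal adhesion molecule, measured 109, 53.2 and 158 in Math2 samples and 35.4, 41.0 and 83.8 in control samples (0.87). Fyn, a kinase downstream of several guidance receptors, measured 5212, 4359 and 6782 in Math2 samples and 4784, 3488 and 4003 in control samples (0.40), and the groups overlapped for all 3 of these genes. Rgs3, a regulator that links ephrin-B to G proteins, measured 1259, 1872 and 1310.2 in Math2 samples and 2196, 2273 and 1997 in control samples (log2 difference -0.56), and the groups did not overlap.

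Markers of another cell type also stood lower in mean. All 10 tested fibroblast and meningeal markers were lower in Math2 samples, with a median log2 difference of -0.365. For 3 of the 10 the groups did not overlap, with a background over all tested probe sets of 4.3% lower and 3.7% higher. At an unadjusted limma p under 0.05 there was 1, with a background of 1.44% lower and 1.75% higher. After adjustment limma called 0 of them, with or without the block. The summed signal of the 12 on the array ran from 9971 to 10553 in Math2 samples and from 10676 to 14103 in control samples, and Dcn lay below the array median on all 6 arrays. Their part in the lower guidance signals was not tested. The median log2 difference was 0.077 for pan-neuronal markers (10 higher, 4 lower), 0.288 for excitatory neuron markers (6 higher, 3 lower), -0.128 for inhibitory neuron markers (1 higher, 6 lower), -0.045 for astrocyte markers (4 higher, 6 lower), -0.046 for oligodendrocyte lineage markers (1 higher, 5 lower) and -0.023 for endothelial and mural markers (3 higher, 4 lower).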

How the data were processed

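Rat cortical cells were profiled on Affymetrix Rat Genome 230 2.0 arrays from 50 ng of total RNA after 2 cycles of amplification. The deposited values are intensities on a linear scale, made with MAS5 per the submitters' processing notes (version not given in the sources used here), and their mean without the highest and lowest 2% was 500 on every array. Of the 31042 probe sets that are not controls, 20826 had 1 symbol in the platform annotation, which can be old, 436 had several and 9780 had none; all 97 member probe sets matched RefSeq genes of GRCr8 with 0 symbols changed. The array names no genome build.

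Signals were taken as log2(signal + 7.42), the pseudocount being the 10th percentile, and the 18625 probe sets at or above the 40th percentile of mean log2 signal were tested, control probe sets (57) left out. The comparison used limma 3.58.1 (R 4.3.3, eBayes with trend), two-sided, over all tested probe sets. Deviations from group means correlated at 0.326, 0.476 and 0.372 for like-numbered samples, all above the limit of 0.1. Samples of unlike number correlated at -0.46 to 0.104, where Math2 sample 3 with control sample 1 also passed the limit. The main fit had no block, and an alternative fit took the sample number as a block. This pairing rests on the data and not the labels. In simulated data of 18625 probe sets the fit without the block found 15% of the 2-fold changes, 84% of the 4-fold ones and 5 unchanged probe sets. With the block it found 12%, 79% and 11. The simulated noise was independent between arrays, without the correlation of like-numbered samples, so these shares need not hold for the measured data. Exact permutation tests are two-sided over 20 groupings.

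Signals on every array are given for members that passed in either fit and for tested members at least 2-fold apart without overlap. They are also given for the 4 smallest p per system (3 for slit and Robo) and for other tested probe sets of these genes. For the pathway list the rule took 3 genes in each direction, of which 2 lower ones are not reported here. The members and lists were chosen with earlier results of these data known.

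Alternatives were other pseudocounts (1 and 32), filters, normalizations, variance models, array weights, the replicate block and left-out arrays.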

Additional observations from a re-analysis of the deposited data

How the results depend on the processing

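Under every alternative run, limma called 0 members higher and 0 lower, with the replicate block too, and the gene median stayed below 0, between -0.391 and -0.221. Its main value was -0.312, it was -0.221 when a gene was given the median of its probe sets, and -0.391 to -0.266 without 1 array. Genes lower in mean numbered 34, 30 to 35 without 1 array, and 22 with the filter at the 60th percentile, where fewer genes were tested; lower semaphorin genes numbered 5 there, against 12. The count of probe sets at least 2-fold lower without overlap was 3. It was 5 with no filter, 1 with a pseudocount of 32, 3 to 7 without 1 array (7 without Math2 array 3, 6 without control array 2) and 3 to 6 with the block and without 1 pair; the count higher was 0, 0 to 1 without 1 array and 0 to 1 without 1 pair. Except with no filter and the higher pseudocount, whose construction adds dim probe sets or shrinks differences, the cause was not tested. With Unc50 counted the gene median was -0.299, and -0.324 over members above the filter in both groups; these alternatives and the counts of lower genes were chosen after seeing the data. Of 557 values of 30 named probe sets under alternatives, 18 changed sign. By probe set, leaving out 1 array gave -0.17 to 0.71 for Robo2, -0.12 to 0.13 and -0.04 to 0.29 for Epha4, -0.77 to 0.03 and -1.10 to 0.66 for Plxnb1, -0.33 to 0.04 for Epha3 and -0.02 to 0.36 for Slit2. Those of Epha4 that changed sign were -0.04 with array weights, -0.12 to -0.04 without 1 array and -0.05 to -0.03 without 1 pair. Those of Robo2 that did were -0.17 to -0.03 and -0.06, of Slit2 -0.02 and -0.14, of Epha3 0.02 to 0.04 and 0.09, and of Plxnb1 0.03 to 0.66 and 0.88, without 1 array and without 1 pair. With 3 arrays a group and no detection calls, differences of dim probe sets are the least certain.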
